A study of Mus musculus with 10 samples.

Results

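Respiratory complex assembly factors are nuclear-encoded proteins that help build complexes I to V of the mitochondrial respiratory chain and are not part of the finished enzymes. The rule took each gene whose symbol starts with Ndufaf and a list of other named factors, in all 37 symbols. Of these, 36 had a row among the 15075 genes of the table, and Sco2 was not analysed here. All 36 passed the filter on low signal, a group mean of 10 or more in the deposited unit (normalized reads per kb of exon), so none was lost. They were measured by RNA sequencing of polyadenylated RNA from interscapular brown adipose tissue (iBAT) of 20-week-old C57BL/6 mice kept at room temperature, with 5 Control and 5 AdCKO libraries. AdCKO mice carry Adipoq-Cre, whose adiponectin promoter is active in adipocytes, on a background homozygous for a Crls1 allele with a floxed exon 4. Control mice carry the same floxed alleles without Cre, although the labels call them wild type. Crls1 encodes cardiolipin synthase, the enzyme that makes the phospholipid cardiolipin in the inner mitochondrial membrane. The comparison asks how loss of Crls1 in adipocytes changes transcripts of the tissue, and the other cell types of the tissue are not targeted. Sex and the number of litters were not stated in the sources used here, so the p-values measure the spread between these 10 libraries.

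A respiratory complex is assembled from modules, each with its own helpers. Complex I joins a membrane arm, a module that binds ubiquinone (the Q module) and an electron input module, and needs iron-sulfur clusters and flavin. Complex II needs flavin and iron-sulfur clusters, complex III needs heme and the Rieske iron-sulfur protein, and complex IV needs heme A and copper. Complex V, the ATP synthase, needs helpers for its catalytic head and its ring of c subunits. In brown fat the respiratory chain feeds heat production through Ucp1, and the complexes sit in the membrane that is rich in cardiolipin.

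Crls1, the targeted gene, was lower in each library that carries the label AdCKO. In Control its signal was 1060.2 ± 191 (SD, n = 5), and AdCKO libraries had 217 ± 26.4 (SD, n = 5), or 20.5% of that level, with an exact two-sided permutation p of 0.0079, the smallest that 5 against 5 can give. Totals of normalized reads also differed. Control libraries summed to between 7615403 and 8171138 and AdCKO libraries to between 5419800 and 5843024, with the same exact permutation p of 0.0079. Of the 8 brown adipocyte markers examined, 6 were lower and the other 2, Fabp4 and Elovl3, did not pass. Over all genes tested, 28.0% were lower and 25.6% higher. Fabp4 was still below each Control library (134139 to 163946) in each AdCKO library (101185 to 115806). With the same total in each library 3 of the 8 markers were lower and 1 higher, beside 9.77% and 60.6% of all genes. Under quantile normalization 2 were lower and 0 higher, beside 31.2% and 22.0% of all genes. Their median log2 fold change there was -0.084, against -0.085 over all genes. As deposited, their summed signal lay between 206262 and 233760.1 in the Control libraries and between 129833 and 154019 in the AdCKO libraries. No defining marker was at 0, but no value of any gene was, so this says nothing of the markers. In whole tissue, fewer adipocytes and less RNA per adipocyte cannot be told apart. Transcripts of skeletal muscle were high in AdCKO replicates 1, 2 and 4 and not in 3 and 5, and all 7 macrophage and all 4 fibroblast markers were higher in AdCKO, as detailed near the end.

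Of the 36 assembly factors, 34 were lower in AdCKO, none was higher, and 2, Ndufaf4 and Uqcc2, did not pass the test. At an unadjusted p under 0.05 in the same limma fit, the number higher was also 0, and the share of all genes there was not computed. Among all 11244 genes tested, 28.0% were lower and 25.6% higher by the same rule, which is limma on log2(signal + 1) with a two-sided test and a Benjamini-Hochberg adjusted p under 0.01. The median log2 fold change of the members was -0.73, against -0.011 over all genes tested, and single members ran from -1.22 for Bcs1l to 0.053 for Ndufaf4. In 29 members every AdCKO library lay below every Control library, which held for 26.4% of all genes tested. The mean AdCKO signal was at or below 50% of Control in 7 members, above 50% and up to 75% in 23, and above 75% in 6. These 6 were Ttc19, Ndufaf2, Cox16, Cox14, Uqcc2 and Ndufaf4. Of the 34 calls, 18 were not made when each library was set to the same total, where 16 members were lower and 1, Ndufaf4, was higher, beside 9.77% and 60.6% of all genes.

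**Figure D1:**
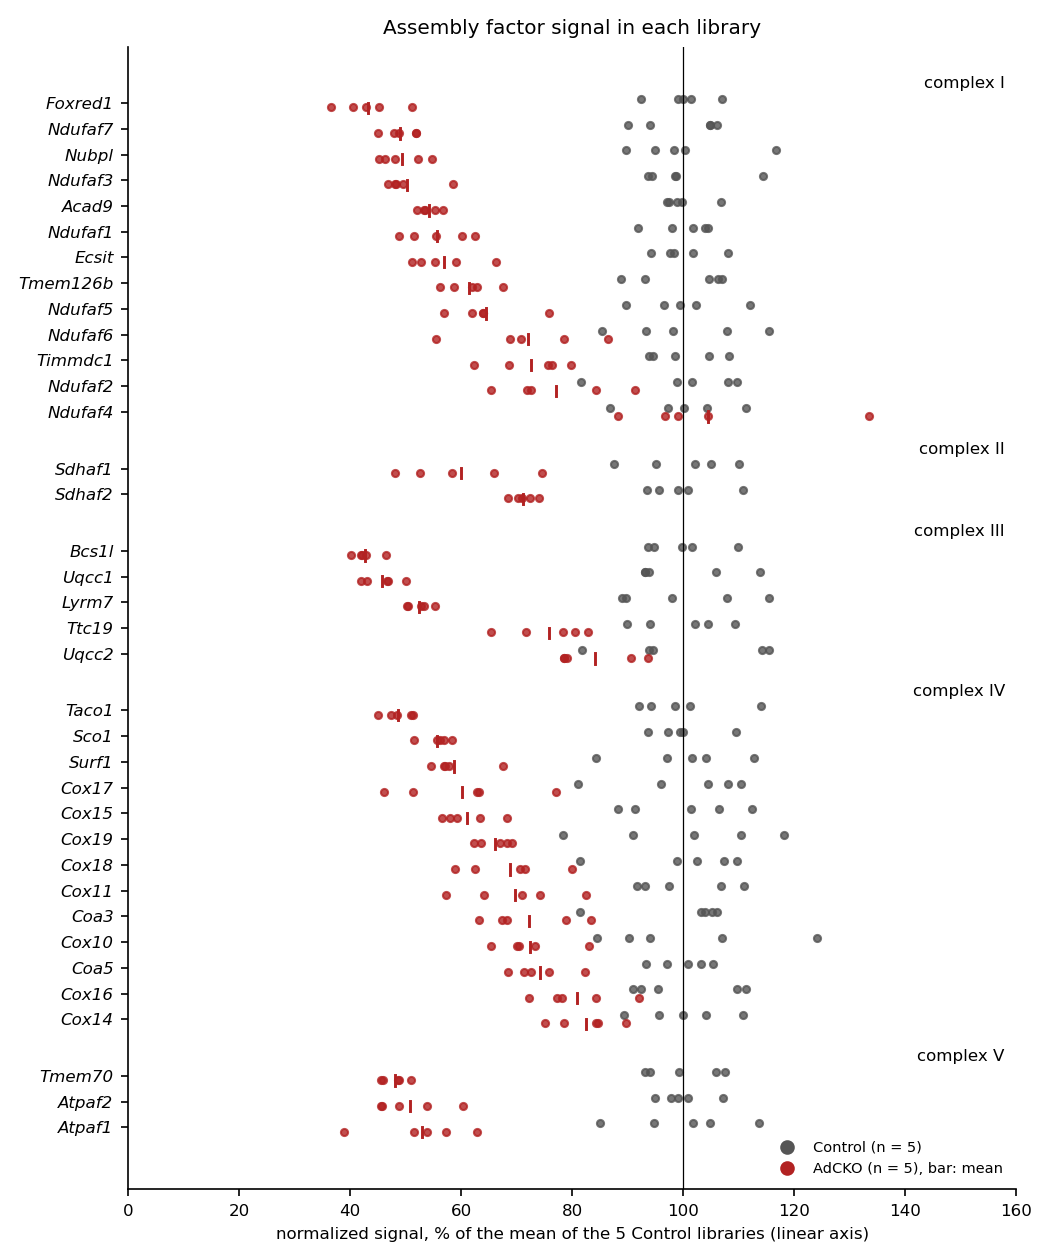
Each row is 1 assembly factor and each point 1 library (grey, 5 Control; red, 5 AdCKO; red bar, AdCKO mean), on a linear axis of signal as a percent of the Control mean, grouped by complex and ordered by log2 fold change. The AdCKO means run from 42.7% for Bcs1l to 104% for Ndufaf4, and in 29 rows the red points all lie left of the grey ones.

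Of the 13 complex I factors, 12 fell and Ndufaf4 did not pass the test. Foxred1 had the largest fall and Acad9 the smallest p. The median log2 fold change was -0.82. Ndufaf8 and the other factors outside the rule are given after the members.

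The rule took 4 factors of the mitochondrial complex I intermediate assembly (MCIA) complex, which builds the membrane arm. All 4 fell, to between 54.2% and 61.5% of Control. Acad9 is an acyl-CoA dehydrogenase that also holds this complex together, and its gene lies at chr3:35964922-35991779, plus strand (mm9, as for all gene positions given). Acad9 signal was 199.5, 186, 185, 182 and 181 in Control replicates 1 to 5 and 97.3, 103, 99.998, 99.6 and 106 in AdCKO replicates 1 to 5. Every AdCKO library was below every Control library (log2 fold change -0.88, SE 0.056, adjusted p = 8.88e-08). Tmem126b, a membrane protein of the same complex, had 191, 192, 159, 167 and 188 in Control replicates 1 to 5 and 101, 113, 121, 105 and 111 in AdCKO replicates 1 to 5. The groups did not overlap (log2 fold change -0.70, SE 0.076, adjusted p = 6.21e-06), but with the same total in each library the adjusted p was 0.0156. Ndufaf1 (306 to 348 in Control, 163 to 208 in AdCKO), a core chaperone of the membrane arm, fell by 0.84 on the log2 scale. Ecsit, an adaptor that was first known from immune signalling, was the most abundant of the 4 per length (631 to 724 in Control, 343 to 444 in AdCKO) and fell by 0.82. Of its 1589 annotated exon bases, 121 overlap an opposite-strand noncoding gene.

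Timmdc1 links intermediates of the membrane arm to the Q module. Timmdc1 signal was 155, 171, 154, 177 and 161 in Control replicates 1 to 5 and 112, 124, 125, 102 and 131 in AdCKO replicates 1 to 5. The groups did not overlap (log2 fold change -0.46, SE 0.079, adjusted p = 0.00023), and its log2 difference was 0.015 with the same total in each library. Foxred1, an FAD-binding oxidoreductase-like protein needed at later stages, lies at chr9:35011806-35018640, minus strand and fell more than any other complex I factor. Control libraries held 561 to 650.3 and AdCKO libraries 222 to 310.5, a mean of 43.3% (log2 fold change -1.21, SE 0.086, adjusted p = 2.10e-07). Nubpl, which delivers iron-sulfur clusters, was one of the 6 members with a Control mean under 100 and fell to 49.3% of Control (56.5 to 73.5 against 28.5 to 34.5, log2 fold change -0.995, SE 0.085, adjusted p = 8.74e-07).

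The 5 factors of the Q module had log2 fold changes from -1.02 for Ndufaf7 to 0.053 for Ndufaf4. Ndufaf7, a mitochondrial methyltransferase, fell to 49.1% of Control (128 to 151 against 64.0 to 73.9, log2 fold change -1.02, SE 0.071, adjusted p = 1.79e-07). Ndufaf5, which hydroxylates the Ndufs7 subunit, was the least abundant member in Control, with 58.2, 54.9, 51.0, 63.7 and 56.6 in Control replicates 1 to 5 and 36.4, 35.3, 36.3, 32.3 and 43.1 in AdCKO replicates 1 to 5. Its AdCKO libraries were all below its Control libraries (log2 fold change -0.62, SE 0.087, adjusted p = 5.17e-05). Ndufaf6, a phytoene synthase-like protein of unsettled activity, had 83.9, 114, 91.8, 96.6 and 106 in Control replicates 1 to 5 and 67.7, 69.6, 77.2, 54.5 and 85.1 in AdCKO replicates 1 to 5. AdCKO replicate 5 lay above the lowest Control library, so the groups overlapped (log2 fold change -0.48, SE 0.12, adjusted p = 0.0035). The call was lost without Control replicate 2 (adjusted p = 0.0105) or Control replicate 5 (adjusted p = 0.0107). Ndufaf2, a late factor of the peripheral arm and a paralog of a complex I subunit, had 165, 222, 219, 206 and 200.2 in Control replicates 1 to 5 and 132, 185, 171, 145 and 147 in AdCKO replicates 1 to 5. Control replicate 1 lay below 2 AdCKO libraries, and the difference passed narrowly (log2 fold change -0.38, SE 0.11, adjusted p = 0.00748). It passed in 3 of the 10 fits that left out 1 library, and in the other 7 (without Control replicate 2, 3, 4 or 5 or AdCKO replicate 1, 4 or 5) the adjusted p ran from 0.0159 to 0.0206.

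Ndufaf3 and Ndufaf4 bind each other and act together at the Q module, and in AdCKO the first fell while the second did not pass. Ndufaf3, at chr9:108468196-108469673, minus strand, had 186, 227, 188, 196 and 196 in Control replicates 1 to 5 and 95.8, 92.9, 98.3, 95.6 and 116 in AdCKO replicates 1 to 5. Every AdCKO library was far below every Control library, at a mean of 50.2% (log2 fold change -0.99, SE 0.08, adjusted p = 5.25e-07). Ndufaf4, at chr4:24825230-24832148, plus strand, had 188, 194, 168, 202 and 215 in Control replicates 1 to 5 and 187, 192, 258, 171 and 202 in AdCKO replicates 1 to 5. The groups overlapped and the difference did not pass (log2 fold change 0.053, SE 0.11, adjusted p = 0.682). AdCKO replicate 3 was the highest of all 10 libraries, and without it the log2 fold change of Ndufaf4 was -0.039. The signal of Ndufaf4 divided by that of Ndufaf3 within a library, which no scaling of whole libraries changes, was 1.01, 0.851, 0.894, 1.03 and 1.10 in Control replicates 1 to 5 and 1.95, 2.06, 2.62, 1.78 and 1.74 in AdCKO replicates 1 to 5. Each AdCKO ratio was above each Control ratio. This pair was picked after its values were seen, so the ratio is given with no test.

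Both complex II factors fell. Sdhaf2 attaches FAD to the catalytic subunit Sdha and lies at chr19:10575002-10599699, minus strand. Its signal was 165, 185, 156, 159 and 168 in Control replicates 1 to 5 and 123, 117, 118, 114 and 121 in AdCKO replicates 1 to 5, with no overlap (log2 fold change -0.48, SE 0.062, adjusted p = 2.24e-05). Sdhaf1, which serves the iron-sulfur subunit Sdhb, had 370.1, 466, 432, 402 and 444 in Control replicates 1 to 5 and 203, 247, 279, 223 and 315 in AdCKO replicates 1 to 5, again with no overlap (log2 fold change -0.75, SE 0.11, adjusted p = 9.73e-05). AdCKO replicate 5 was the highest of its group and replicate 1 the lowest. Of the 965 annotated exon bases of Sdhaf1, 636 overlap a gene on the opposite strand, and the library kit does not mark strand, so reads of the 2 genes cannot be told apart. With the same total in each library neither factor passed, at -0.0063 and -0.27 on the log2 scale.

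Among the 5 complex III factors, 4 fell and Uqcc2 did not pass. Bcs1l, an AAA ATPase that moves the folded Rieske protein across the inner membrane, had both the largest fall and the smallest p of all members. Its gene is at chr1:74634935-74639017, plus strand. Bcs1l signal was 185, 217, 201, 197 and 187 in Control replicates 1 to 5 and 84.7, 83.3, 79.2, 83.0 and 91.9 in AdCKO replicates 1 to 5. The AdCKO libraries lay close together and far below Control, at a mean of 42.7% (log2 fold change -1.22, SE 0.066, adjusted p = 3.07e-08). Lyrm7, which holds the Rieske protein in the matrix before Bcs1l acts, fell with little spread in AdCKO (91.9 to 119 in Control against 52.0 to 57.2, log2 fold change -0.91, SE 0.081, adjusted p = 1.16e-06). Ttc19, which clears Rieske fragments after insertion, fell less, with 128, 110.2, 105, 119.5 and 122 in Control replicates 1 to 5 and 76.5, 91.8, 97.0, 83.9 and 94.4 in AdCKO replicates 1 to 5. Its groups were close and did not overlap (log2 fold change -0.40, SE 0.082, adjusted p = 0.00103). With the same total in each library its log2 difference was 0.079, while that of Bcs1l was -0.74 and that of Lyrm7 -0.44, and both of these still passed.

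Uqcc1 and Uqcc2 form the pair that receives newly made cytochrome b, the mitochondrially encoded subunit of complex III. The signal of Uqcc1, at chr2:155672622-155756046, minus strand, was 473, 578, 473, 476 and 538 in Control replicates 1 to 5 and 218, 238, 237, 212 and 254 in AdCKO replicates 1 to 5. It fell to 45.7% of Control (log2 fold change -1.12, SE 0.078, adjusted p = 1.80e-07). Uqcc2, at chr17:27259610-27270836, minus strand, had 414, 585, 476, 579 and 479 in Control replicates 1 to 5 and 398, 459, 398, 400.1 and 474 in AdCKO replicates 1 to 5. The groups overlapped and Uqcc2 did not pass (log2 fold change -0.24, SE 0.10, adjusted p = 0.0533). Within libraries, the ratio of Uqcc2 to Uqcc1 was 0.876, 1.01, 1.01, 1.22 and 0.89 in Control replicates 1 to 5 and 1.82, 1.93, 1.68, 1.88 and 1.87 in AdCKO replicates 1 to 5. All 5 AdCKO ratios were above all 5 Control ratios, a pair again picked with its values known.

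**Figure D2:**
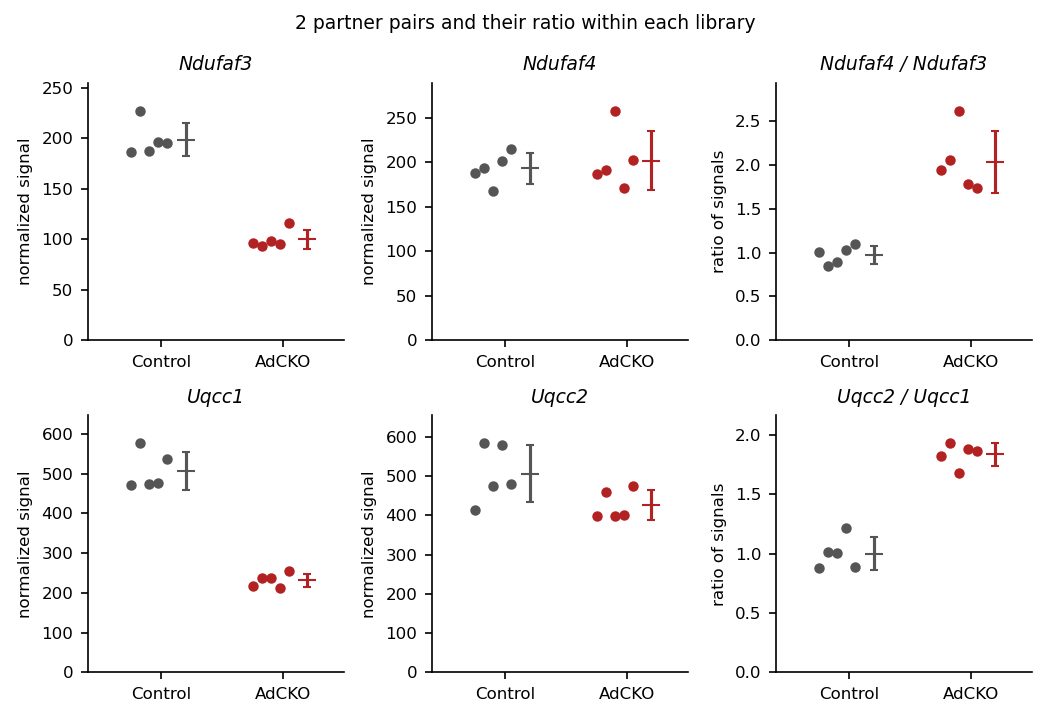
Signal (normalized reads per kb, from 0) of Ndufaf3, Ndufaf4, Uqcc1 and Uqcc2 and the ratio within each library, with points for the 5 Control (grey) and 5 AdCKO (red) libraries and mean ± SD beside them. The mean Ndufaf4 to Ndufaf3 ratio was 0.977 ± 0.102 in Control and 2.03 ± 0.355 in AdCKO, and that of Uqcc2 to Uqcc1 was 1.00 ± 0.136 and 1.84 ± 0.0962.

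Promoters are shown for these pairs and for the member with the largest fall. The RefSeq promoter table on GRCm38.p6, a later build than that of the files, matched 31 of the 36 members. The 250 bases before each start were searched on both strands for 5 motifs. These were NRF1 (GCGCNTGCG), ERR (AAGGTCA), GABPA (CCGGAAG), YY1 (AANATGGCG) and ATF4-C/EBP (TGATGNAA). An NRF1 match was found in 3 of the 31 members (9.68%), Ndufaf4, Uqcc2 and Ttc19, against 5.88% of all 27025 genes of the table. A GABPA match was found in 7 (22.6%), Bcs1l, Timmdc1, Ndufaf1, Sdhaf2, Cox10, Cox16 and Sco1, against 7.83% of all genes. YY1 matched in 1 member, Sdhaf2 (3.23% against 1.29%), and ERR and ATF4-C/EBP in none, against 4.7% and 3.91% of all genes. With deposited values, the 2 members that did not pass the test were both among the 3 with an NRF1 match, and Ttc19 was lower. Which members did not pass depended on the scaling, with 7 under quantile normalization and 19 with the same total in each library. The motif search describes letters only, was not tested, and says nothing of binding. The last 150 bases before the start follow, with the matches to any of the 5 motifs in capitals, for the 3 members with an NRF1 match, for their partners Ndufaf3 and Uqcc1, and for Bcs1l.
Ndufaf4, chr4:24897933-24898082, plus strand: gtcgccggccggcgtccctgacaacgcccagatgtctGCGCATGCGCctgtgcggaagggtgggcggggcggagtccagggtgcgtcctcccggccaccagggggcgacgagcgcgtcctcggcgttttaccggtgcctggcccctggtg
Uqcc2, chr17:27133892-27134041, minus strand: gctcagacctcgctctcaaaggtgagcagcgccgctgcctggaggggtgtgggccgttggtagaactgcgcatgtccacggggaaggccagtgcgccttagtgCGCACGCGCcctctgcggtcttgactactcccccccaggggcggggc
Ttc19, chr11:62281323-62281472, plus strand: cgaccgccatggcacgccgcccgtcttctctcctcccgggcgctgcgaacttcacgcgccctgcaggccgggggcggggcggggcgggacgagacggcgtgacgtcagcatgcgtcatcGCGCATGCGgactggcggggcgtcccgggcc
Ndufaf3, chr9:108567437-108567586, minus strand: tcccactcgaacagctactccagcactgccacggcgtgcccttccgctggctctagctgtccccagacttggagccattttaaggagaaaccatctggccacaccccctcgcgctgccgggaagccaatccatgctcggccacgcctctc
Uqcc1, chr2:155930311-155930460, minus strand: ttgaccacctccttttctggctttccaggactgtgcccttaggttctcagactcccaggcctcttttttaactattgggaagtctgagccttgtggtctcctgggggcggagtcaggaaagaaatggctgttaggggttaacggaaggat
Bcs1l, chr1:74588139-74588288, plus strand: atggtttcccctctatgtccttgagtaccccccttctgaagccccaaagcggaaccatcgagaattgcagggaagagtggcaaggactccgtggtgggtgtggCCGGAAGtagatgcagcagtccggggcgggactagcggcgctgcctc
In Ndufaf4 the capitals hold 2 overlapping NRF1 matches that start 113 and 112 bases before the start site, and in Uqcc2 and Ttc19 the match starts 47 and 31 bases before it. The GABPA match of Bcs1l starts 47 bases before its start site. Ndufaf3 and Uqcc1 have no match in these windows, which says only that those letters are not there.

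All 13 complex IV factors fell, though with the median nearest to 0 of the 5 complexes, -0.54. Taco1 and Sco1 fell most and Cox14 least. Of these 13, 3 (Taco1, Sco1 and Surf1) were still lower with the same total in each library.

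Heme A, the heme of cytochrome c oxidase, is made by Cox10, which adds a farnesyl tail to heme, and Cox15, which oxidizes the product. Cox10 signal was 231, 318, 217, 241 and 274 in Control replicates 1 to 5 and 180.4, 179, 188, 168 and 213 in AdCKO replicates 1 to 5. AdCKO replicate 5 came close to the lowest Control library and did not reach it (log2 fold change -0.45, SE 0.10, adjusted p = 0.00217). Cox15 had 215, 238, 225, 187 and 193 in Control replicates 1 to 5 and 119.7, 134, 123, 126 and 144 in AdCKO replicates 1 to 5, with a wider gap between groups (log2 fold change -0.70, SE 0.082, adjusted p = 1.14e-05). The annotated exons of Cox15 share 444 of 4909 bases with Entpd7 on the opposite strand. With the same total in each library, the log2 differences were 0.025 for Cox10 and -0.22 for Cox15, and neither passed.

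Copper reaches cytochrome c oxidase through Cox17, a soluble copper chaperone of the intermembrane space, which hands it to Sco1 for subunit 2 and to Cox11 for subunit 1. Cox17 was the most abundant member per length, with 1759, 2267, 2085, 2395 and 2344 in Control replicates 1 to 5 and 1114, 1365, 1671, 1000.2 and 1373 in AdCKO replicates 1 to 5. The AdCKO libraries spread widely, from replicate 4 at the low end to replicate 3 at the high end, and all stayed below Control (log2 fold change -0.75, SE 0.14, adjusted p = 0.000404). Under quantile normalization the log2 difference of Cox17 was -0.30 and did not pass (adjusted p = 0.0616). Sco1 fell to 55.7% of Control (58.2 to 68.1 against 32.0 to 36.2, log2 fold change -0.83, SE 0.067, adjusted p = 5.25e-07). Cox11 had 149.8, 157, 147, 178 and 172 in Control replicates 1 to 5 and 103, 119, 132, 91.9 and 114 in AdCKO replicates 1 to 5. Its groups did not overlap (log2 fold change -0.52, SE 0.10, adjusted p = 0.000517), and 688 of its 1412 annotated exon bases overlap Tom1l1 on the opposite strand. Cox19, which works with Cox11 on copper delivery, had 660.1, 929.8, 766, 858 and 996 in Control replicates 1 to 5 and 525, 583, 575, 564 and 535 in AdCKO replicates 1 to 5. Control replicate 1 was the lowest of its group and still above each AdCKO library (log2 fold change -0.58, SE 0.10, adjusted p = 0.000301). Cox16, which helps form the copper site of subunit 2, had 93.3, 90.4, 109, 89.0 and 107 in Control replicates 1 to 5 and 76.4, 75.6, 89.9, 82.4 and 70.7 in AdCKO replicates 1 to 5. AdCKO replicate 3 lay just above the lowest Control library (log2 fold change -0.30, SE 0.086, adjusted p = 0.00782). Of the 3325 annotated exon bases of Cox16, 1833 are shared with Synj2bp on the same strand. Reads from shared bases may belong to either gene, and how many of the 1997 counted bases of Cox16 are shared was not computed. Its call was lost in 7 of the 10 fits that left out 1 library (Control replicate 1, 3 or 5, or AdCKO replicate 1, 2, 4 or 5), with adjusted p from 0.0113 to 0.0227.

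Synthesis and early assembly of subunit 1, the catalytic core encoded by mitochondrial DNA, involve Taco1, Cox14, Coa3 and Surf1. Taco1, the translational activator of this subunit, lies at chr11:105927421-105934926, plus strand and had the smallest p of the complex IV factors, with 395, 457, 378, 369 and 406 in Control replicates 1 to 5 and 194, 204, 181, 189.7 and 206 in AdCKO replicates 1 to 5. The AdCKO libraries lay far below Control, at a mean of 48.6% (log2 fold change -1.03, SE 0.071, adjusted p = 1.65e-07), and 199 of its 1337 annotated exon bases overlap an opposite-strand transcript. Cox14 and Coa3 hold the new subunit 1 in the membrane and couple its synthesis to assembly. Cox14 had 596, 637, 695, 667 and 738 in Control replicates 1 to 5 and 500.4, 564, 563, 524 and 598 in AdCKO replicates 1 to 5. The 2 groups met, with AdCKO replicate 5 just above Control replicate 1 (log2 fold change -0.28, SE 0.075, adjusted p = 0.00629). The call of Cox14 was lost in 6 of the 10 fits that left out 1 library (Control replicate 3, 4 or 5, or AdCKO replicate 1, 2 or 4), with adjusted p from 0.0115 to 0.0191. Coa3 had 593, 772, 756, 751 and 766 in Control replicates 1 to 5 and 491, 574, 607, 460.3 and 496 in AdCKO replicates 1 to 5. Control replicate 1 stood apart from the other 4 and lay below AdCKO replicate 3 (log2 fold change -0.47, SE 0.10, adjusted p = 0.00118). Surf1, an early factor whose loss in humans causes Leigh syndrome, fell to 58.8% (293 to 392 against 189.7 to 235, log2 fold change -0.76, SE 0.086, adjusted p = 8.35e-06), and 137 of its 1724 annotated exon bases overlap Surf2 on the opposite strand. The ratio of Cox14 to Taco1 within a library was 1.39 to 1.84 across Control libraries and 2.58 to 3.11 across AdCKO libraries, a pair picked with its values known.

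Cox18 inserts the tail of subunit 2 into the inner membrane and had 119, 123, 129, 97.4 and 131 in Control replicates 1 to 5 and 85.5, 70.6, 95.7, 74.9 and 84.6 in AdCKO replicates 1 to 5. Its AdCKO replicate 3 came close to the lowest Control library without passing it (log2 fold change -0.54, SE 0.10, adjusted p = 0.000524). Coa5, a small protein needed at an early stage of complex IV assembly, was the second most abundant member, with 1179, 1232, 1092, 1136 and 1208 in Control replicates 1 to 5 and 801, 888, 962, 835 and 849 in AdCKO replicates 1 to 5. Its groups did not overlap (log2 fold change -0.43, SE 0.069, adjusted p = 0.000142), but the log2 difference was -0.12 under quantile normalization and 0.048 with the same total in each library, and did not pass in either.

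All 3 complex V factors fell, and all 3 stayed lower under each of the 3 scalings. Tmem70, a membrane protein needed for the ring of c subunits, lies at chr1:16655272-16668356, plus strand and had the smallest p of the 3. Its signal was 957, 897, 842, 850.2 and 972 in Control replicates 1 to 5 and 412, 440.0, 441, 415 and 461 in AdCKO replicates 1 to 5. The groups were far apart (log2 fold change -1.05, SE 0.066, adjusted p = 7.89e-08). Atpaf2, the chaperone of the alpha subunit of the catalytic head, was among the 3 most abundant members and fell to 50.8% of Control (995 to 1123 against 477 to 632, log2 fold change -0.98, SE 0.084, adjusted p = 8.64e-07). Atpaf1, the chaperone of the beta subunit, had a much lower signal and fell to 52.9% (50.5 to 67.5 against 23.2 to 37.3, log2 fold change -0.91, SE 0.12, adjusted p = 3.29e-05). Per length, Atpaf2 exceeded Atpaf1 by a factor of 16.4 to 20.5 in the Control libraries and 13.7 to 24.3 in the AdCKO libraries, ranges that overlap.

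The subunits that these factors assemble were more abundant and, by their medians, fell further in complexes I to IV with deposited values and with equal totals, an order that turned under quantile normalization for complexes I, III and IV. Per length, the median Control signal was 3512 for 75 listed nuclear-encoded subunits and 200.5 for the 36 factors. The list is not complete and leaves out isoforms of complex IV subunits such as Cox7a1 and Cox8b. Of the subunits, 72 were lower, 1 was higher and 2 did not pass, with a median log2 fold change of -1.01. Scaled to the same total, 53 were lower, 3 higher and 19 did not pass, and under quantile normalization 45 were lower, 2 higher and 28 did not pass. Over all genes tested, 28.0% were lower and 25.6% higher as deposited. These shares were 9.77% and 60.6% with the same total, and 31.2% and 22.0% under quantile normalization. For complex I the medians were -0.82 for the factors and -1.003 for 36 subunits. Complex II gave -0.62 and -1.21, and complex III -0.91 and -1.14. Complex IV had the widest gap apart from complex II, with -0.54 for the 13 factors and -1.02 for the 11 listed subunits. Complex V went the other way, with -0.98 and -0.87. The subunit that was higher was Atp5g1, which encodes a c subunit and was at 19.4 ± 2.16 in Control and 76.9 ± 25.9 in AdCKO (log2 fold change 1.87, SE 0.21, adjusted p = 7.71e-06). Atp5g2 and Atp5g3, which encode the same mature c subunit, did not pass. These 3 genes are near-identical over the mature protein and have copies elsewhere in the genome, so their reads may be split between them. They are among the 15 complex V subunits, and the complex V median without them was not computed.

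**Figure D3:**
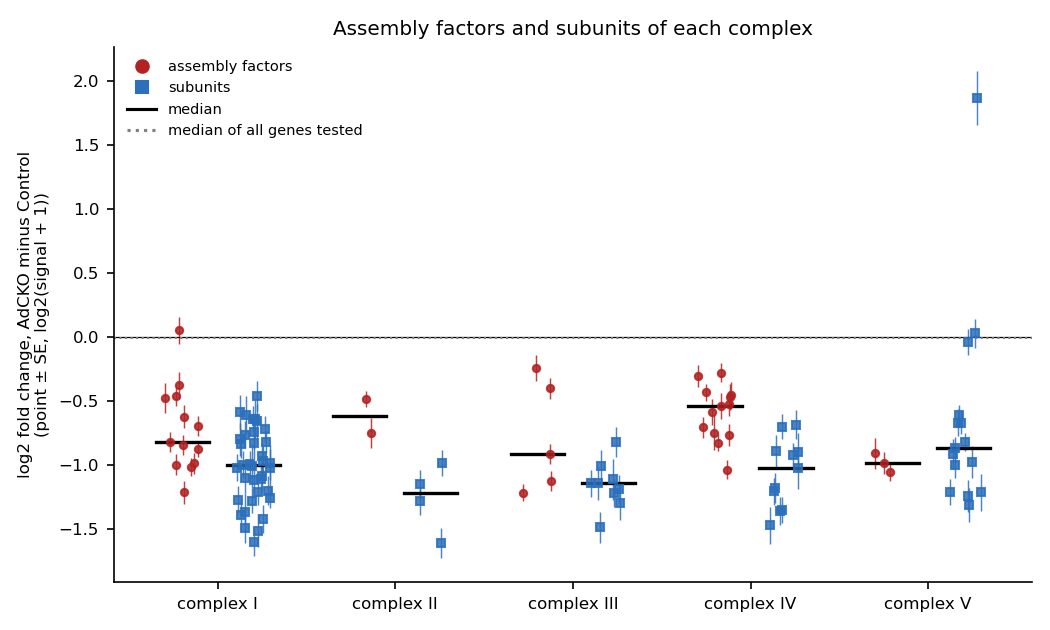
Log2 fold change (AdCKO minus Control, ± SE, on log2(signal + 1)) of each assembly factor (red circles) and each listed nuclear-encoded subunit (blue squares) by complex. A black line marks each median and a dotted line the median of all genes. With these deposited values the factor medians lie above the subunit medians in complexes I to IV, for example -0.54 and -1.02 in complex IV, and below in complex V. The complex V subunits include the c-subunit genes Atp5g1, Atp5g2 and Atp5g3, whose reads may be split between them.

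Within single libraries, the mean log2 signal of the factors minus that of the subunits of the same complex gives a difference that multiplying a library by 1 factor hardly moves. For complex IV it was -4.62, -4.65, -4.65, -4.78 and -4.67 in Control replicates 1 to 5 and -4.09, -4.19, -4.22, -4.07 and -4.43 in AdCKO replicates 1 to 5. All 5 AdCKO values were above all 5 Control values for complex IV. For complex I the range was -3.70 to -3.46 in Control and -3.45 to -3.22 in AdCKO, ranges that almost meet. For complex III it was -5.10 to -4.87 and -4.83 to -4.45. Complex II, with 2 factors, gave -4.43 to -4.29 in Control and -3.82 to -3.62 in AdCKO. Complex V went the other way without overlap, from -2.54 to -2.23 in Control and -2.88 to -2.66 in AdCKO. Its subunits include Atp5g1, which was higher (log2 fold change 1.87), and Atp5g2 and Atp5g3, which did not pass. The complex V difference without these c-subunit genes was not computed. The lists were chosen with results known, so these are descriptions with no test, and the added pseudocount of 1 shrinks the change of low signals slightly. Quantile normalization, which forces the same distribution on each library, put the median of the subunits at -0.43 and that of the factors at -0.62, so there the order of the 2 groups turned.

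Level and counted length did not track the change among the 36 members. Across them, Spearman's rho with the log2 fold change was -0.058 for the Control signal and -0.092 for the counted exon length, as a description across genes that share libraries. Members of near-equal signal differed widely, such as Ndufaf4 (193 in Control, log2 fold change 0.053) and Bcs1l (198, -1.22). Control means ran from 56.9 for Ndufaf5 to 2170.0 for Cox17. They were under 100 in 6 members and at least 1000 in 3, Cox17, Coa5 and Atpaf2.

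**Figure D4:**
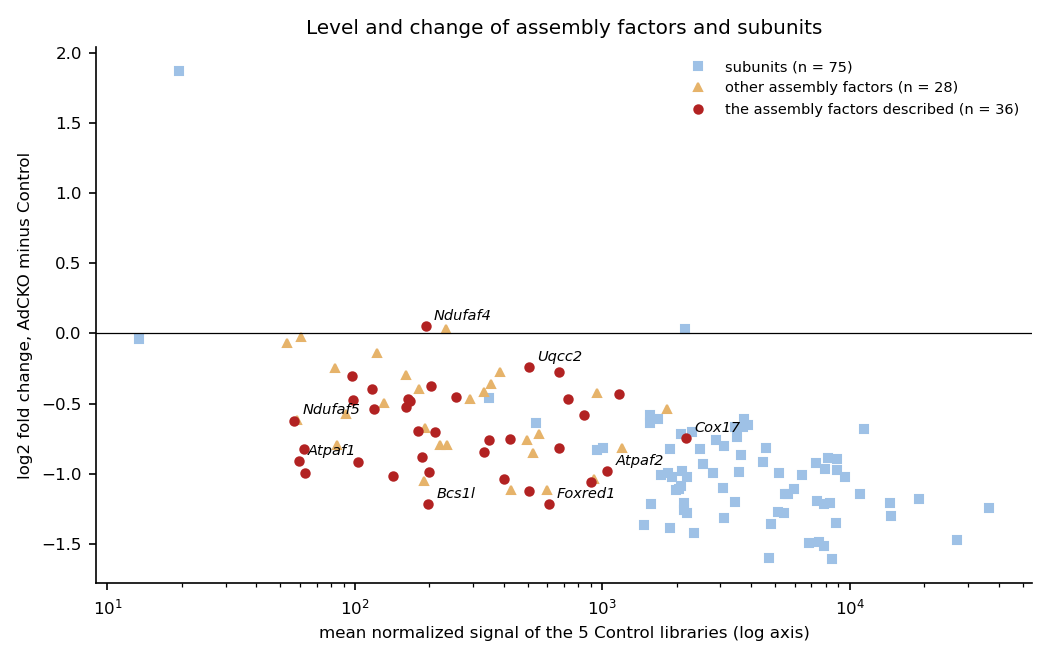
Mean Control signal (log axis, normalized reads per kb) against log2 fold change for the 36 assembly factors (red circles), 28 other assembly factors (orange triangles) and 75 subunits (blue squares), with 8 members named. The factors spread from -1.22 to 0.053 at signals below those of most subunits, and the subunit at the top is Atp5g1 with a log2 fold change of 1.87.

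Other assembly factors, which the rule did not take, were counted in the same way. Of 28 with a row, 20 were lower, none was higher and 8 did not pass, with a median log2 fold change of -0.55. The shares over all genes tested were 28.0% lower and 25.6% higher. At an unadjusted p under 0.05 in limma the number higher was also 0, and the share of all genes there was not computed. With the same total in each library 8 were lower, 4 (Coa4, Pet117, Chchd4 and Gfer) were higher and 16 did not pass. Over all genes, 9.77% were lower and 60.6% higher there. Under quantile normalization 15 were lower and 0 higher, beside 31.2% and 22.0% of all genes. The counted exon length of Pet117 is 49 bases, so its signal per kb stands for few normalized reads. The 3 with the smallest p were Tmem186, Coa8 and Higd1a. Tmem186, a further MCIA member, had 179.6 to 206 in Control and 83.3 to 101 in AdCKO (log2 fold change -1.05, SE 0.069, adjusted p = 1.14e-07). Coa8, a factor of complex IV, was at -1.11 and Higd1a, a small protein bound to complex IV, at -0.80 on the log2 scale. Chchd4 and Gfer, which form the disulfide relay that imports small proteins such as Cox17 and Cox19, did not pass, at 0.033 and -0.14. Ndufaf8, the partner of Ndufaf5, is deposited under an older symbol and so was not a member by the rule, and it was lower (log2 fold change -0.46, SE 0.11, adjusted p = 0.00357).

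The number of members called depended on the scaling of the libraries. The median log2 fold change over all genes was -0.011 as deposited, -0.085 under quantile normalization and 0.46 with the same total in each library. Relative to that median, the members lay at -0.71, -0.54 and -0.71, so that 35 of 36, all but Ndufaf4, were below the median gene with deposited values and with equal totals, and 33 under quantile normalization. Calls of lower expression numbered 34, 29 and 16, beside 28.0%, 31.2% and 9.77% of all genes, and calls of higher expression 0, 0 and 1, beside 25.6%, 22.0% and 60.6%. The 16 members that were lower under all 3 scalings were Foxred1, Ndufaf7, Nubpl, Ndufaf3, Acad9, Ndufaf1 and Ecsit of complex I, Bcs1l, Uqcc1 and Lyrm7 of complex III, Taco1, Sco1 and Surf1 of complex IV, and Tmem70, Atpaf2 and Atpaf1 of complex V. With equal totals, 9 members turned in sign without passing, namely Timmdc1, Ndufaf2, Ttc19, Uqcc2, Cox10, Cox16, Cox14, Coa3 and Coa5, and Ndufaf4 was higher at 0.53 (adjusted p = 0.0008).

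**Figure D5:**
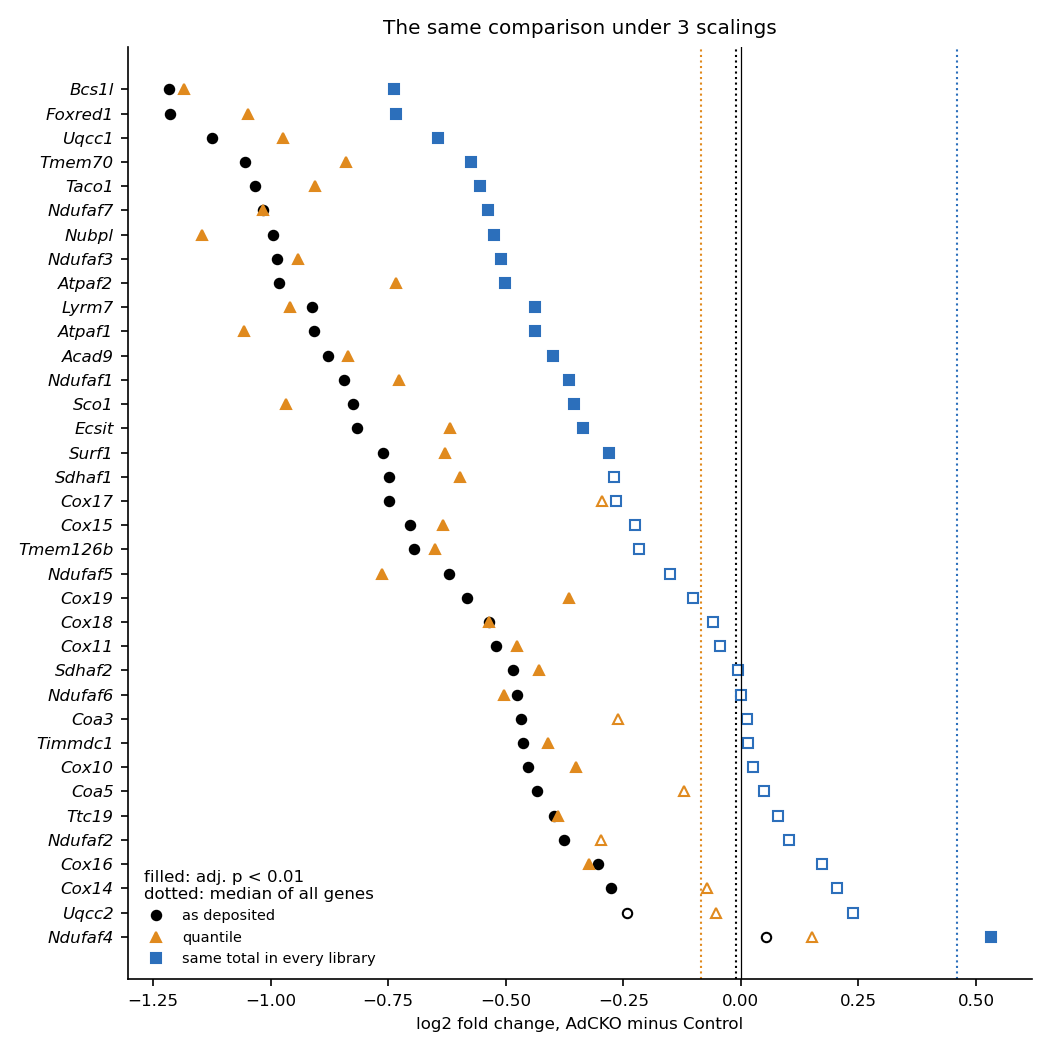
Log2 fold change of the 36 members with values as deposited (black circles), quantile normalized (orange triangles) and with the same total in each library (blue squares), filled where the adjusted p was under 0.01, with dotted lines at the median of all genes under each scaling. The blue squares are shifted to the right, with a median of -0.25 against -0.73, as is the median of all genes (0.46 against -0.011).

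The libraries of each group differed among themselves. AdCKO replicate 5 was the highest of its group in 21 of the 36 members and AdCKO replicate 4 the lowest in 14. In Control, replicate 2 was the highest in 19 members and replicate 1 the lowest in 13. The 8 skeletal muscle markers summed to between 456 and 495 in Control, to 284 and 290.3 in AdCKO replicates 3 and 5, and to between 6664 and 24809 in AdCKO replicates 1, 2 and 4. With only AdCKO replicates 3 and 5 against Control, 22 members were lower and none higher, beside 19.7% of all genes lower, and the median of the members was -0.60. The log2 fold change of Bcs1l was -1.20 there, against -1.22 with all libraries, and that of Uqcc1 -1.04 against -1.12. Other differences were nearer to 0, such as Ndufaf6 at -0.27 against -0.48, Sdhaf1 at -0.51 against -0.75 and Cox17 at -0.51 against -0.75. Atpaf1 fell further, at -1.12 against -0.91, and Nubpl, Taco1 and Cox19 were slightly further below 0. The 12 members whose call was lost were Timmdc1, Ndufaf2, Ndufaf6, Ttc19, Cox10, Cox11, Cox14, Cox16, Cox17, Cox18, Coa3 and Coa5, each still with a negative difference.

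Other cell types also moved with the groups. The 7 macrophage markers summed to 421 to 1198 in Control and 5719 to 7807 in AdCKO, and the 4 fibroblast markers to 303 to 413 and 2237 to 3371. Of the 4 endothelial markers, 1 was higher, beside 25.6% of all genes tested. The 4 lymphoid markers summed to at most 32.1 in Control and to 136 in AdCKO replicate 1. General adipocyte genes fell too, Adipoq by 0.52 and Plin1 by 0.62 on the log2 scale, Fabp4 was at -0.44 without passing, and Pparg fell by 0.47. These are differences of the deposited values, and fewer of the brown adipocyte markers were lower under the other scalings, as given above. Against the deposited range of these 4, 21 members had a larger fall, 8 lay within it and 7 were above it. These 4 are part of the 8 brown adipocyte markers, whose log2 fold changes ran from -1.63 to -0.06. All members but Ndufaf4 lay within that wider range. The part of cell makeup in the falls of the members was not tested.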

How the data were processed

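Polyadenylated RNA from iBAT was sequenced from 5 Control and 5 AdCKO mice, grouped by the sample labels. Reads were aligned by the authors with STAR to the mm9 genome. The authors then normalized exon counts from iRNA-seq with DESeq2 and divided them by length. The signal the authors deposited is thus in reads per kb after normalization, with 1 RefSeq transcript per gene, and is not counts. The smallest value is 0.0532, none is 0, and whole reads could not be recovered from the low ones. The values may therefore have been moderated between samples, by a transformation not given in the sources used here. Any moderation would carry into the fold changes, SEs and p-values. The authors' own fold changes, p-values and gene lists, which come with the deposited table, were not used. Low values did not fall on steps of whole reads (within 0.1 of a read, at most 23.6% of them in a library against 20% by chance), so the depth is unknown and precision is the spread between libraries.

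Values were fitted as log2(signal + 1) with limma 3.58.1 in R 4.3.3 (trend, two-sided) for 11244 genes whose mean reached 10 in a group, with Benjamini-Hochberg adjustment over all of them and a threshold of 0.01. Fold changes on this scale understate the change of low genes. The test was checked on simulated data. Crls1 and library totals were compared with exact two-sided permutation tests in scipy 1.17.1, and figures drawn with matplotlib 3.10.9 in Python 3.11.15. Gene positions are those of the deposited table on mm9, and exon overlaps come from GENCODE M1 on the same build. The overlaps are given over annotated exon bases, which differ from the counted bases, and the shared part of the counted bases was not computed. Promoters are from RefSeq on GRCm38.p6.

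The members and lists were chosen with earlier results of these data known. Values in every library are given for the called member with the smallest p in each complex, the largest fall and rise, the most abundant member, and members whose call depends on a scaling, and others by range and count. Ndufaf3, Uqcc1 and Uqcc2 are given by library as partners chosen after their values were seen. From other lists, genes called higher and at most 3 with the smallest p are named, and other genes named from them were chosen after their values were seen. Alternatives were a pseudocount of 0.1 or 10, no filter, equal totals, quantile normalization, limma without a trend or with a robust trend, the replicate number as a block, a threshold of 0.05, and each library left out in turn. The comparison with AdCKO replicates 3 and 5 only was added after seeing the data.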

Additional observations from a re-analysis of the deposited data

Results flagged for a closer look

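In 72 groups of 5 libraries, 1 for each member in each condition, 5 libraries stood apart from the other 4 by Dixon's criterion (a gap of over 0.71 of the range), where chance gives about 1 in 20. Acad9 was 199.5 in Control replicate 1, against 181 to 186 in the other Control libraries. Ndufaf3 was 227 in Control replicate 2, against 186 to 196, and 116 in AdCKO replicate 5, against 92.9 to 98.3 in the other AdCKO libraries. Coa3 was 593 in Control replicate 1, below the 751 to 772 of the others. Surf1 was 235 in AdCKO replicate 5, against 189.7 to 201. Leaving out any of these libraries kept the call of lower expression for the gene concerned.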

How the results depend on the processing

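With the same total in each library, 16 members were lower and 1 higher, with a median log2 fold change of -0.25, against 34, 0 and -0.73 as deposited. Under that scaling the differences of Timmdc1 (0.015), Ndufaf2 (0.10), Ttc19 (0.079), Uqcc2 (0.24), Cox10 (0.025), Cox16 (0.17), Cox14 (0.20), Coa3 (0.012) and Coa5 (0.048) changed sign, none past the threshold, and the median over all genes moved with them. With AdCKO replicates 3 and 5 only, added after seeing the data, 22 were lower and the median was -0.60, from fewer libraries. Quantile normalization left 29 lower, and pseudocounts of 0.1 and 10, no filter, limma without a trend or with a robust trend and a threshold of 0.05 each left 34 lower and none higher. Leaving out 1 library at a time gave 30 to 34 lower, none higher, and medians of -0.76 to -0.68. The sign of Ndufaf4 turned without AdCKO replicate 3 (a range of -0.039 to 0.11 over the 10 fits), and 30 of the 34 members passed in all 10 such fits.

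The labels number the libraries 1 to 5 in each group. Libraries with the same number did not deviate together (correlations of -0.268 to 0.098), so no sign of pairing by number was seen. Such correlations cannot exclude a pairing. The replicate block gave 33 lower and 0 higher with the same median of -0.73, and Cox16 did not pass (adjusted p = 0.0135). The best correlated partner had another number in each of the 5 cases.

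Since the depth is unknown, differences of members with low signal, such as Ndufaf5, Sco1, Nubpl and Atpaf1, carry a counting error that cannot be given. The cause of the lower totals in AdCKO was not tested, and no scaling was singled out by a spike-in or other standard.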
